A study of Arabidopsis thaliana with 8 samples.

Results

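Type-A cytokinin response regulators are a family of 10 *Arabidopsis thaliana* genes, *ARR3*, *ARR4*, *ARR5*, *ARR6*, *ARR7*, *ARR8*, *ARR9*, *ARR15*, *ARR16* and *ARR17*. They were found by locus among the 33028 genes of each count table, because the tables write some of them under other symbols, *RR3* for *ARR8* among them. All 10 were found, and 9 of them had enough counts to be tested. Transcripts of whole seedlings were counted with QuantSeq, a method that reads the 3′ ends of polyadenylated RNAs, with 1 fragment for a transcript. The 8 libraries fall into 4 groups of 2, all of Columbia background: *AtRH17* OXs, *HRE1α* OXs, *HRE1β* OXs and the wild type (WT). *HRE1* (*AtERF73*) encodes a group VII ethylene response factor of the hypoxia response, and HRE1α and HRE1β are its splicing variants. *AtRH17* encodes a DEAD-box RNA helicase. The overexpressors (OX) are stable transgenic lines, and the sources used here do not give the promoters that drive the transgenes or say which and how many independent lines the libraries came from. By the sample labels, every group was grown without further treatment for 14 days after germination in days of 8 h light and 16 h dark at 22 °C, whereas the study's methods give a younger age. Each line was compared with WT to ask which transcripts differ in level, and the 3 lines were also compared with each other.

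Cytokinins are plant hormones that are sensed by histidine kinase receptors of the endoplasmic reticulum, and the signal passes as a phosphoryl group through histidine phosphotransfer proteins to response regulators in the nucleus. Type-B response regulators bind DNA and switch on cytokinin-responsive genes, among them those of the type-A response regulators. Type-A response regulators have a receiver domain but no DNA-binding domain and dampen the signal, so that they form a negative feedback loop, and their transcript levels are a common readout of cytokinin response in seedlings and shoot meristems.

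Total counts per library ranged from 25657217 to 30606058, and 24607 to 25196 genes had at least 1 count. *HRE1* had 1401 and 1115 counts in WT and 4424 and 5397 counts in *HRE1α* OXs, a log2 fold change of 2.05 by edgeR (adjusted p = 2.06e-10). It had 916 and 1057 counts in the libraries with the label *HRE1β* OX, a log2 fold change of −0.37 by edgeR (adjusted p = 0.0263) that did not pass with upper-quartile factors (adjusted p = 0.0643) or without any 1 of the libraries WT replicate 1, HRE1β OX replicate 1 and HRE1β OX replicate 2. *AtRH17* had 259 and 242 counts in WT against 144 and 124 counts in the libraries labelled *AtRH17* OX, a log2 fold change of −0.79 by edgeR (adjusted p = 0.00121). Neither transgene was thus seen above WT in its own libraries, which are referred to by their labels below, and each direction given for them is that of the libraries so labelled. Such 3′ reads cannot tell the *HRE1* variants apart and may lie outside a transgene's transcript, so the counts do not show whether a transgene was expressed. Marker lists of organs were counted in the same libraries. Summed CPM (counts scaled to the same library size) of 7 leaf and shoot markers ranged from 19459 to 22522 in WT, from 23942 to 24989 in *HRE1α* OXs, from 29210 to 32052 in the libraries with the label *HRE1β* OX and from 32485 to 33305 in the libraries labelled *AtRH17* OX. The labels do not say whether the replicates came from separate cultures, so p-values measure the spread between these libraries, which may be technical. In whole seedlings, fewer cells of a type and less RNA per cell cannot be told apart.

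The family consists of pairs of close relatives. Over aligned residues, the encoded proteins of *ARR3* and *ARR4* were 79.1% identical, those of *ARR5* and *ARR6* 81.4%, those of *ARR7* and *ARR15* 72.3%, those of *ARR8* and *ARR9* 74.4%, and those of *ARR16* and *ARR17* 86.7%. Over all 45 pairs the identity ranged from 44.9% to 86.7%. The longest identical stretch shared by the transcripts of any pair was 41 bases, shorter than the 75-base reads. No read can thus match 2 members over its whole length without a mismatch. Matches with mismatches were not searched, and by the study's methods multiple alignments were counted, so reads counted for 2 members are not excluded. The proteins are short, from 154 residues in *ARR17* to 323 residues in *ARR3*. By the TAIR10.1 annotation, *ARR4* lies on chromosome 1 from 3441988 to 3444360, *ARR7* on chromosome 1 from 6577833 to 6579314, *ARR3* on chromosome 1 from 22065617 to 22067233, and *ARR15* on chromosome 1 from 28131447 to 28133025, all on the reverse strand. *ARR5* lies on chromosome 3 from 17758427 to 17760950 and *ARR6* on chromosome 5 from 25252007 to 25254318, both on the reverse strand. *ARR8* lies on chromosome 2 from 17221840 to 17224880, *ARR16* on chromosome 2 from 16969673 to 16972113, *ARR17* on chromosome 3 from 20905264 to 20906397 and *ARR9* on chromosome 3 from 21109059 to 21111567, all on the forward strand.

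The sequences before the start of 4 members are shown because these members moved in different directions: *ARR7* and its closest relative *ARR15*, *ARR6*, which was lower in both the libraries with the label *HRE1β* OX and those labelled *AtRH17* OX, and *ARR8*, which was higher in the latter. Each is the 250 bases before the annotated gene start in TAIR10.1, written 5′ to 3′ on the strand of the gene. *ARR7* is at chr1:6579315-6579564, *ARR15* at chr1:28133026-28133275 and *ARR6* at chr5:25254319-25254568, all on the reverse strand, and *ARR8* is at chr2:17221590-17221839 on the forward strand. Capitals mark AGATT, a core that type-B response regulators bind, and its reverse complement AATCT.
ARR7: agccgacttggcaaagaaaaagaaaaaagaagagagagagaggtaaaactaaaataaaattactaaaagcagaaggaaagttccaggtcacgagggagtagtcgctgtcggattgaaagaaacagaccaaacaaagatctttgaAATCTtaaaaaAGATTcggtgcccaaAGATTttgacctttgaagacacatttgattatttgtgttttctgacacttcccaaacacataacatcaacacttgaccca
ARR15: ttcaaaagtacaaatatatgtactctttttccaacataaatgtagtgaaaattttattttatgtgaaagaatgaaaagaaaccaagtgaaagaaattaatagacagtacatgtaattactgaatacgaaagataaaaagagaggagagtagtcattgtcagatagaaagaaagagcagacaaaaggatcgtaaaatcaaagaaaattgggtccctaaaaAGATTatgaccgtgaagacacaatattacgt
ARR6: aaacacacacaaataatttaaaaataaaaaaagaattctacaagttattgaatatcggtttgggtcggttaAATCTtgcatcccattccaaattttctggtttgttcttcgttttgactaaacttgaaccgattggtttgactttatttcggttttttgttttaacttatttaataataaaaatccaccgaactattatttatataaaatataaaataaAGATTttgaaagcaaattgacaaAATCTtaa
ARR8: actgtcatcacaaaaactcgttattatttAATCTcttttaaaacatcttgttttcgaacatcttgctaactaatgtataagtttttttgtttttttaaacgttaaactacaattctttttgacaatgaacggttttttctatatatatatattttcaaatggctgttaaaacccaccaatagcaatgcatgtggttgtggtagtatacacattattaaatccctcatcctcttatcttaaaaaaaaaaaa

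AGATT occurred on either strand 3 times before *ARR7* and *ARR6*, 2 times before *ARR9* and *ARR16*, 1 time before *ARR3*, *ARR8* and *ARR15*, and not before *ARR4*, *ARR5* and *ARR17*. At least 1 match was found in 63.7% of the 27443 protein-coding genes searched with the same 250-base window, and 3 or more in 9.26%. The GCC box core GCCGCC, which ethylene response factors bind, was in none of the 10 windows and in 1.87% of all of them. Within 1000 bases it was found 1 time before *ARR6* and 2 times before *ARR15*, against at least 1 match in 8.44% of genes. A match describes the letters of the window and is not evidence of binding.

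In *HRE1α* OXs, 4 of the 9 tested members were higher than in WT and none was lower. They were *ARR15*, *ARR7*, *ARR4* and *ARR9* by edgeR, and at an unadjusted p under 0.05 or with DESeq2 the number of lower members was also 0. Over all 22602 genes tested, 1.57% were higher and 1.8% were lower in this comparison. These 760 genes became 1468 without WT replicate 2, 284 without HRE1α OX replicate 1 and 262 without HRE1α OX replicate 2. The median log2 fold change of the 9 members was 0.25, against −0.01 over all genes tested.

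*ARR15* and *ARR7*, like *ARR5* and *ARR6*, are repressed by the stem cell factor WUSCHEL in the shoot meristem. *ARR15* was at 0.995 and 1.44 CPM in WT and at 4.20 and 4.43 CPM in *HRE1α* OXs, from 28 and 42 counts and 110 and 123 counts. Both overexpressor libraries were above both WT libraries, and the level was 3.54-fold higher, a log2 fold change of 1.82 (standard error 0.351, adjusted p = 0.00137, edgeR). *ARR7* was at 20.6 and 21.3 CPM in WT and at 33.4 and 33.7 CPM in *HRE1α* OXs. Its replicates lay close together in both groups and the groups did not overlap, with a log2 fold change of 0.68 (standard error 0.125, adjusted p = 0.000833, edgeR).

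*ARR4*, whose protein binds phytochrome B, was at 80.0 and 73.7 CPM in WT and at 114 and 110 CPM in *HRE1α* OXs. The log2 fold change was 0.55 (standard error 0.0963, adjusted p = 0.000533, edgeR), and both overexpressor libraries were above WT. Its close relative *ARR3* was at 2.17 and 1.74 CPM in WT and at 2.18 and 1.48 CPM in *HRE1α* OXs, and its groups overlapped. *ARR9* was at 55.8 and 49.0 CPM in WT and at 68.7 and 70.0 CPM in *HRE1α* OXs, with a log2 fold change of 0.40 (standard error 0.0915, adjusted p = 0.00704, edgeR). Its relative *ARR8* was at 41.6 and 36.8 CPM in WT and 43.0 and 49.4 CPM in *HRE1α* OXs, with a log2 fold change of 0.24 by edgeR (adjusted p = 0.258). Each of *ARR4* and *ARR9* thus passed the test while its closest relative did not, and the difference within a pair was not tested.

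*ARR5* and *ARR6*, early transcripts of the cytokinin response, did not pass in *HRE1α* OXs. *ARR5* was at 30.1 and 30.8 CPM in WT and at 37.9 and 33.8 CPM in *HRE1α* OXs, a log2 fold change of 0.24 by edgeR (adjusted p = 0.313). *ARR6* was at 52.8 and 56.0 CPM in WT and at 51.9 and 47.0 CPM in *HRE1α* OXs, a log2 fold change of −0.14 by edgeR (adjusted p = 0.593). *ARR16* had a log2 fold change of 0.25 by edgeR (adjusted p = 0.418), and *ARR17* was listed at 0 in the WT and *HRE1α* OX libraries. None of the 4 calls passed when quantile-normalized log2(CPM + 1) values were tested with limma, a setting under which 73 genes in all passed in place of 760, and the adjusted p were then 0.0921 for *ARR7* and *ARR15*, 0.15 for *ARR4* and 0.185 for *ARR9*. The *ARR9* call was also lost without either *HRE1α* OX library (adjusted p = 0.0957 without replicate 1 and 0.139 without replicate 2, edgeR). In *HRE1α* OXs 3 of the 7 leaf and shoot markers were higher than in WT, and the shoot meristem markers summed to 27.2 to 29.9 CPM against 21.9 to 23.3 CPM in WT. Of these 4 meristem markers only *STM* and *KNAT1* had enough counts to be tested. Neither passed (adjusted p = 0.59 for *STM* and 0.151 for *KNAT1*, edgeR). The part of the markers in the higher levels was not tested.

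**Figure D1:**
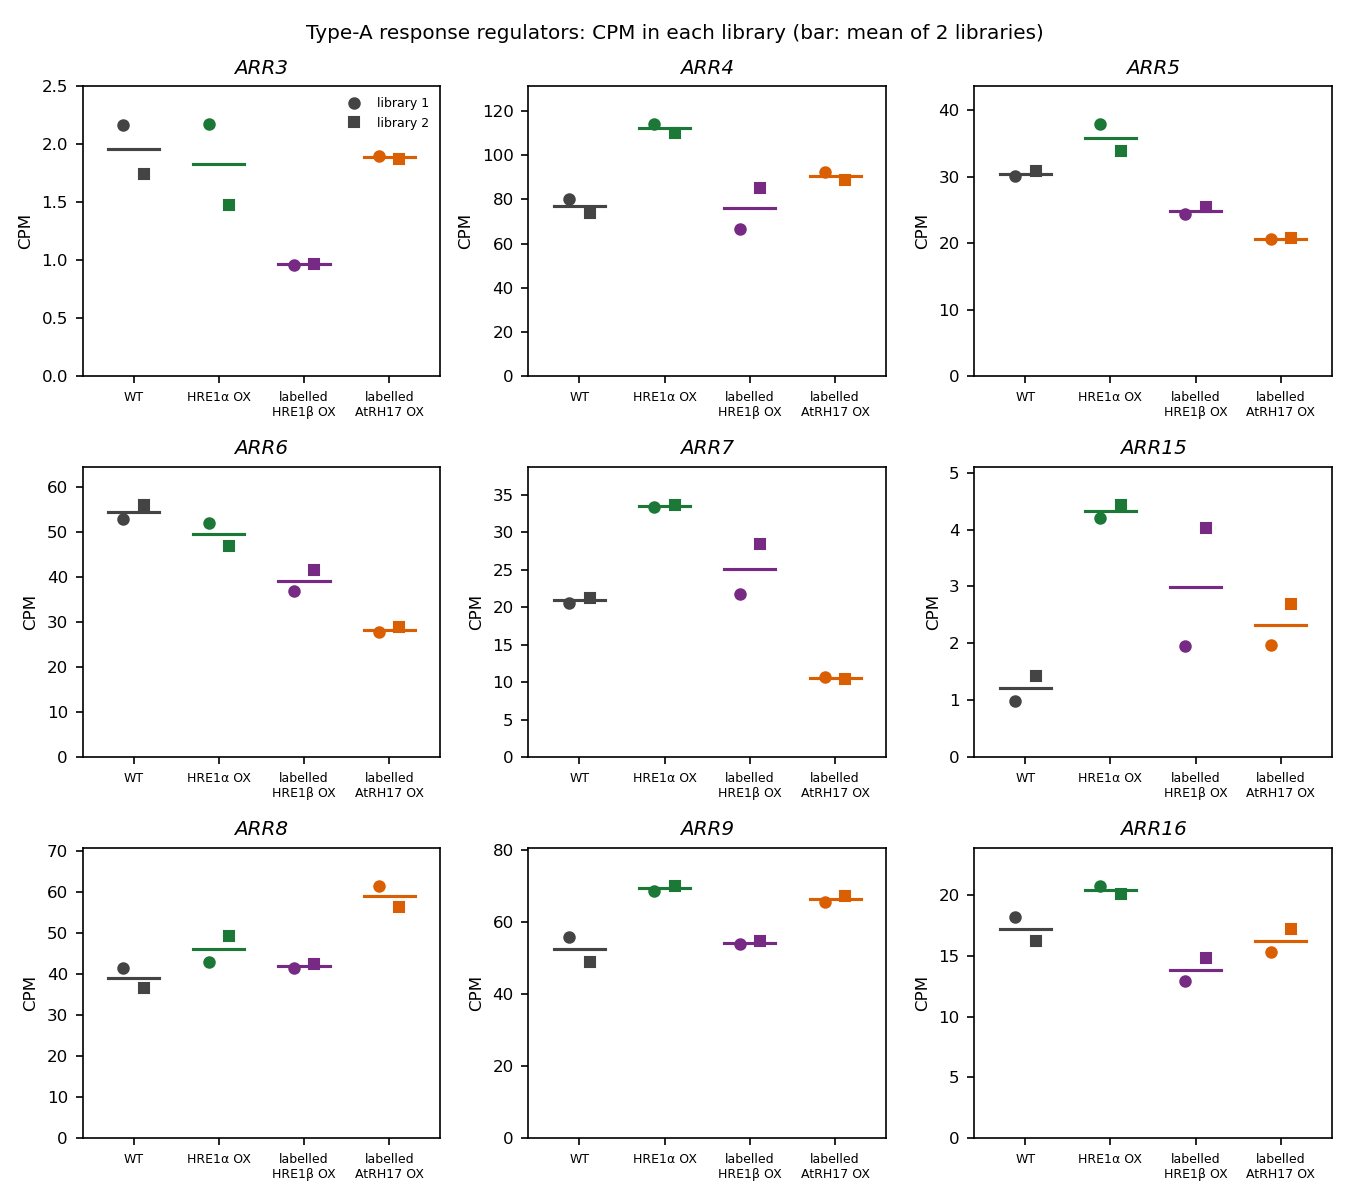
Level of each tested type-A response regulator in each library, in CPM on a linear axis from 0, with the 2 libraries of a group as a circle and a square and their mean as a bar. *ARR7* stands at 33.4 and 33.7 CPM in *HRE1α* OXs and at 10.7 and 10.5 CPM in the libraries labelled *AtRH17* OX, on either side of WT at 20.6 and 21.3 CPM.

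In the libraries with the label *HRE1β* OX, 1 of the 9 tested members was higher than in WT and 1 was lower, where 11.2% of all genes tested were higher and 11.6% were lower. The median log2 fold change of the members was −0.02, against 0.00 over all genes. *ARR6* was at 36.8 and 41.5 CPM, both below WT at 52.8 and 56.0 CPM, and its log2 fold change was −0.47 (standard error 0.1, adjusted p = 0.000617, edgeR). *ARR15* was at 1.96 and 4.02 CPM against 0.995 and 1.44 CPM in WT, from 53 and 124 counts. Its 2 libraries were apart from each other but both above WT, with a log2 fold change of 1.30 (standard error 0.355, adjusted p = 0.00703, edgeR). The *ARR15* call rested on single libraries: without HRE1β OX replicate 2 the log2 fold change was 0.70 (adjusted p = 0.319, edgeR), and without WT replicate 1 it was 1.07 (adjusted p = 0.0572, edgeR).

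The other 7 members did not pass in the libraries with the label *HRE1β* OX. *ARR3* was at 0.961 and 0.972 CPM, both below WT at 2.17 and 1.74 CPM, but with 26 and 30 counts its log2 fold change of −1.01 had a standard error of 0.398 (adjusted p = 0.0653, edgeR). With limma on quantile-normalized values *ARR3* passed (−0.69, adjusted p = 0.0163), whereas the *ARR15* call was lost (0.72, adjusted p = 0.0892). *ARR5* was at 24.4 and 25.4 CPM, also below both WT libraries, with a log2 fold change of −0.29 by edgeR (adjusted p = 0.0574). *ARR16* was at 12.9 and 14.8 CPM against 18.2 and 16.2 CPM in WT, with a log2 fold change of −0.31 by edgeR (adjusted p = 0.105). How many of all genes lay below both WT libraries without passing was not counted. *ARR7* was at 21.8 and 28.4 CPM, above WT, with a log2 fold change of 0.26 by edgeR (adjusted p = 0.136), and it passed without HRE1β OX replicate 1 (adjusted p = 0.039, edgeR). *ARR4*, *ARR8* and *ARR9* overlapped WT, with log2 fold changes of −0.02, 0.10 and 0.05.

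Other organ markers moved in the same libraries. Of 7 leaf and shoot markers, 6 were higher than in WT. The 10 listed seed markers summed to 27.6 to 97.3 CPM against 0.308 to 0.853 CPM in WT. All 6 tested seed markers were higher. Most of these 6 had enough counts only through these libraries, so that the filter fixed their direction and their number is no test. The 4 shoot meristem markers summed to 16.3 to 17.1 CPM against 21.9 to 23.3 CPM in WT. Of the 2 tested, *STM* was lower (log2 fold change −0.59, adjusted p = 0.0164, edgeR) and *KNAT1* did not pass (−0.34, adjusted p = 0.1, edgeR). The part of the markers in the levels of the response regulators was not tested.

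In the libraries labelled *AtRH17* OX, 2 of the 9 tested members were higher than in WT and 3 were lower. Over all genes tested, 15.3% were higher and 15.5% were lower. Of the genes called, 49.5% were higher, or 39.7% when scaled by total counts without factors. *ARR5*, *ARR6* and *ARR7* were lower and *ARR8* and *ARR9* were higher, with a median log2 fold change of −0.05 against −0.01 over all genes.

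*ARR7* was at 10.7 and 10.5 CPM against 20.6 and 21.3 CPM in WT, a 1.97-fold lower level with a log2 fold change of −0.98 (standard error 0.134, adjusted p = 1.02e-06, edgeR). *ARR6* was at 27.8 and 28.8 CPM against 52.8 and 56.0 CPM, a log2 fold change of −0.94 (standard error 0.102, adjusted p = 1.7e-08, edgeR). *ARR5* was at 20.6 and 20.8 CPM against 30.1 and 30.8 CPM, a log2 fold change of −0.56 (standard error 0.112, adjusted p = 0.00025, edgeR). In each of these 3 genes the replicates of both groups lay close together and the groups did not overlap. *ARR8* was at 61.6 and 56.4 CPM against 41.6 and 36.8 CPM in WT, a log2 fold change of 0.59 (standard error 0.101, adjusted p = 3.15e-05, edgeR). *ARR9* was at 65.5 and 67.3 CPM against 55.8 and 49.0 CPM, a log2 fold change of 0.34 (standard error 0.0916, adjusted p = 0.00451, edgeR). Both libraries were above WT for both genes, by more for *ARR8*, and the difference between the 2 rises was not tested. The calls of *ARR5*, *ARR6*, *ARR7* and *ARR8* were kept in all 18 alternative settings, with adjusted p of at most 0.0151, 0.00184, 0.00364 and 0.0127, whereas *ARR9* did not pass without WT replicate 2 (adjusted p = 0.0604, edgeR) or with limma on quantile-normalized values (adjusted p = 0.0551).

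*ARR4* and *ARR15* were above WT in both libraries labelled *AtRH17* OX without passing. *ARR4* was at 92.6 and 88.9 CPM, a log2 fold change of 0.24 by edgeR (adjusted p = 0.0585), and *ARR15* at 1.97 and 2.69 CPM, a log2 fold change of 0.93 by edgeR (adjusted p = 0.0516). Both lay close to the threshold, and *ARR4* passed in 8 and *ARR15* in 9 of the alternative settings. *ARR15* thus stood above both WT libraries while *ARR7*, its closest relative, stood below them. *ARR3* and *ARR16* overlapped WT, with log2 fold changes of −0.05 and −0.08. *ARR16*, at 15.3 and 17.2 CPM, lies 4522 bases from *AtRH17* on chromosome 2 with 2 genes between them. *ARR17* was counted 1 time in AtRH17 OX replicate 2 and in no other library. A gene with 3 counts has 0.0972 to 0.122 CPM in these libraries, so that *ARR17* was below the level that can be measured here.

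Other genes overlap 3 members, and the sources used here do not say whether strand was used in counting. Without strand the reads of an overlap cannot be told apart, which limits the results of *ARR6* and *ARR8*. *ARR6* shares 348 bases at its 3′ end with *AT5G62910* on the opposite strand, with 476 and 585 counts in WT and 282 and 291 counts in the libraries labelled *AtRH17* OX. Its log2 fold change there was −0.76 (adjusted p = 0.000162, edgeR), and −0.61 in the libraries with the label *HRE1β* OX (adjusted p = 0.0024, edgeR). It was thus lower in the same libraries as *ARR6*. *ARR8* shares 299 bases near its 3′ end with the antisense RNA *AT2G09250*. This RNA had 487 and 393 counts in WT and 634 and 479 counts in the libraries labelled *AtRH17* OX. Its log2 fold change there was 0.45 by edgeR (adjusted p = 0.0215). In these libraries it was also higher than in *HRE1α* OXs (0.59, adjusted p = 0.00343, edgeR) and than in the libraries with the label *HRE1β* OX (0.60, adjusted p = 0.00627, edgeR). *ARR9* shares 231 bases with *AT3G08825* at its start, away from the 3′ end that is read, and *AT3G08825* had 0 to 4 counts in a library. In the libraries labelled *AtRH17* OX all 7 leaf and shoot markers were higher than in WT, and of the 9 root markers 1 was higher and 2 were lower. The shoot meristem markers summed to 24.3 to 28.7 CPM against 21.9 to 23.3 CPM in WT. Of the 2 tested, *KNAT1* was higher (log2 fold change 0.40, adjusted p = 0.034, edgeR) and *STM* did not pass (−0.04, adjusted p = 0.886, edgeR). Both were higher than in the libraries with the label *HRE1β* OX (*STM* adjusted p = 0.0419, *KNAT1* adjusted p = 0.000799, edgeR). The part of these markers in these levels was not tested.

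**Figure D2:**
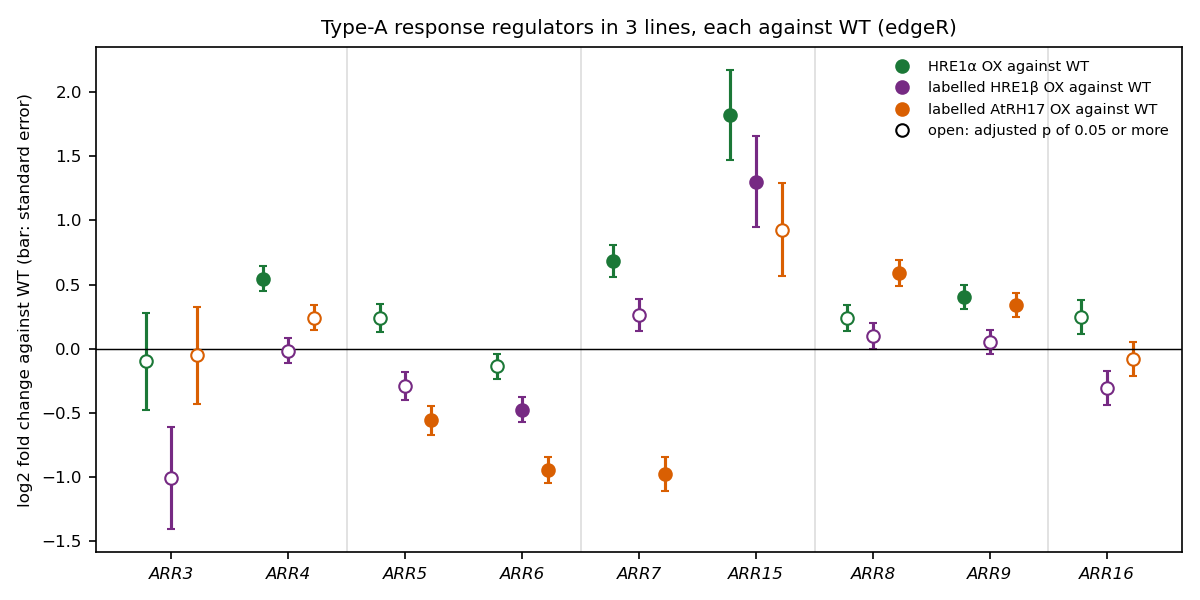
Log2 fold change against WT of each tested member in *HRE1α* OXs and in the libraries with the label *HRE1β* OX and *AtRH17* OX, with the standard error of the fit as a bar. Closed points passed an adjusted p of 0.05 (edgeR) and open points did not, and grey lines separate pairs of close relatives. *ARR7* is at 0.68 in *HRE1α* OXs and at −0.98 in the libraries labelled *AtRH17* OX.

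The comparisons with WT share the same 2 WT libraries, so that a low or high WT value moves all of them alike. The lines were therefore compared with each other directly. Between the libraries with the label *HRE1β* OX and *HRE1α* OXs, none of the 9 tested members was higher and 6 were lower in the former, where 8.86% of all genes were higher and 7.87% were lower. The median log2 fold change of the members was −0.52, against 0.00 over all genes. Each of the 9 log2 fold changes was negative by edgeR, so that the number of higher members was 0 at any threshold on p.

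The 6 members were *ARR4* (log2 fold change −0.56, adjusted p = 9.53e-05), *ARR5* (−0.53, adjusted p = 0.000915), *ARR16* (−0.56, adjusted p = 0.00393), *ARR9* (−0.35, adjusted p = 0.00621), *ARR7* (−0.42, adjusted p = 0.0182) and *ARR6* (−0.34, adjusted p = 0.0185) by edgeR. *ARR3* (−0.91, adjusted p = 0.126), *ARR15* (−0.52, adjusted p = 0.309) and *ARR8* (−0.14, adjusted p = 0.403) did not pass (edgeR). With limma on quantile-normalized values *ARR3* passed (−0.61, adjusted p = 0.0368). The calls of *ARR6*, *ARR7* and *ARR9* were lost in that setting (adjusted p = 0.139, 0.115 and 0.121, limma). *ARR4* illustrates the comparison, at 114 and 110 CPM in *HRE1α* OXs and at 66.8 and 85.2 CPM in the libraries with the label *HRE1β* OX. *ARR16*, which passed in neither comparison with WT, was at 20.7 and 20.04 CPM in *HRE1α* OXs and at 12.9 and 14.8 CPM in the libraries with the label *HRE1β* OX. The calls of *ARR4* and *ARR5* held in all alternative settings, whereas only 2 members passed without HRE1α OX replicate 1 or without HRE1β OX replicate 1. The shoot meristem markers moved as well. *STM*, which keeps the meristem undifferentiated, had a log2 fold change of −0.83 by edgeR (adjusted p = 0.00118) and *KNAT1* of −0.74 (adjusted p = 0.000494, edgeR), while *WUS* was listed at 0 in every library and *CLV3* had 0 to 6 counts. Their part in the lower levels was not tested.

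Between the libraries labelled *AtRH17* OX and *HRE1α* OXs, 5 of the 9 members were lower and 1 was higher, where 12.4% of all genes were lower and 13.4% were higher. *ARR7* was 3.16-fold lower, at 10.7 and 10.5 CPM against 33.4 and 33.7 CPM, with a log2 fold change of −1.66 by edgeR (adjusted p = 7.24e-11). *ARR6* (−0.81, adjusted p = 5.18e-07), *ARR5* (−0.79, adjusted p = 2.67e-06), *ARR15* (−0.89, adjusted p = 0.0456) and *ARR4* (−0.31, adjusted p = 0.0178) were lower as well (log2 fold changes, edgeR). *ARR8* was the member that was higher, with a log2 fold change of 0.35 by edgeR (adjusted p = 0.00912) that did not pass without HRE1α OX replicate 1 (adjusted p = 0.188) or without AtRH17 OX replicate 1 (adjusted p = 0.12). *ARR9* stood at 65.5 and 67.3 CPM against 68.7 and 70.0 CPM and had a log2 fold change of −0.06 by edgeR (adjusted p = 0.669). *ARR5*, *ARR6* and *ARR7* passed in all alternative settings, and these 3 were the ones left without HRE1α OX replicate 1 or without AtRH17 OX replicate 1. The calls of *ARR4* and *ARR15* were lost without any 1 of the 4 libraries compared, with adjusted p between 0.0575 and 0.28 (edgeR).

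Between the libraries labelled *AtRH17* OX and those labelled *HRE1β* OX, 2 of the 9 members were higher and 2 were lower, where 7.42% of all genes were higher and 6.45% were lower. *ARR7* was at 10.7 and 10.5 CPM against 21.8 and 28.4 CPM, a log2 fold change of −1.24 by edgeR (adjusted p = 8.28e-08). *ARR6* had a log2 fold change of −0.47 by edgeR (adjusted p = 0.00209). *ARR8*, at 61.6 and 56.4 CPM against 41.5 and 42.4 CPM, had a log2 fold change of 0.49 by edgeR (adjusted p = 0.00111), and *ARR9* of 0.29 (adjusted p = 0.0298, edgeR). *ARR7* was thus lower in the libraries labelled *AtRH17* OX than in each of the other 3 groups, and *ARR8* was higher than in each of them, as was the antisense RNA that overlaps it. With limma on quantile-normalized values *ARR6* (adjusted p = 0.0654), *ARR8* (adjusted p = 0.0863) and *ARR9* (adjusted p = 0.215) did not pass. *ARR6* also did not pass without HRE1β OX replicate 2 (log2 fold change −0.39, edgeR). *ARR9* did not pass without any single line library, with adjusted p between 0.0553 and 0.184 (edgeR).

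Summed over the members, WT had 295 ± 10.8 CPM (SD, n = 2). The sum was 373 ± 4.39 CPM in *HRE1α* OXs, 279 ± 25.6 CPM in the libraries with the label *HRE1β* OX and 296 ± 2.48 CPM in the libraries labelled *AtRH17* OX. The sum was highest in *HRE1α* OXs, and the other 3 groups differed from each other by less than the SD within the libraries with the label *HRE1β* OX. The sums of WT and the libraries labelled *AtRH17* OX were close but differed in make-up. *ARR5*, *ARR6* and *ARR7* together made up 36.0% ± 2.43 (SD, n = 2) of the family's counts in WT, 31.8% ± 1.3 in *HRE1α* OXs, 31.9% ± 0.162 in the libraries with the label *HRE1β* OX and 20.1% ± 0.406 in the libraries labelled *AtRH17* OX. *ARR8* and *ARR9* together made up 31.1% ± 1.65, 30.98% ± 1.83, 34.6% ± 2.75 and 42.3% ± 0.462 in the same order. These shares restate the levels above and carry no test of their own.

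**Figure D3:**
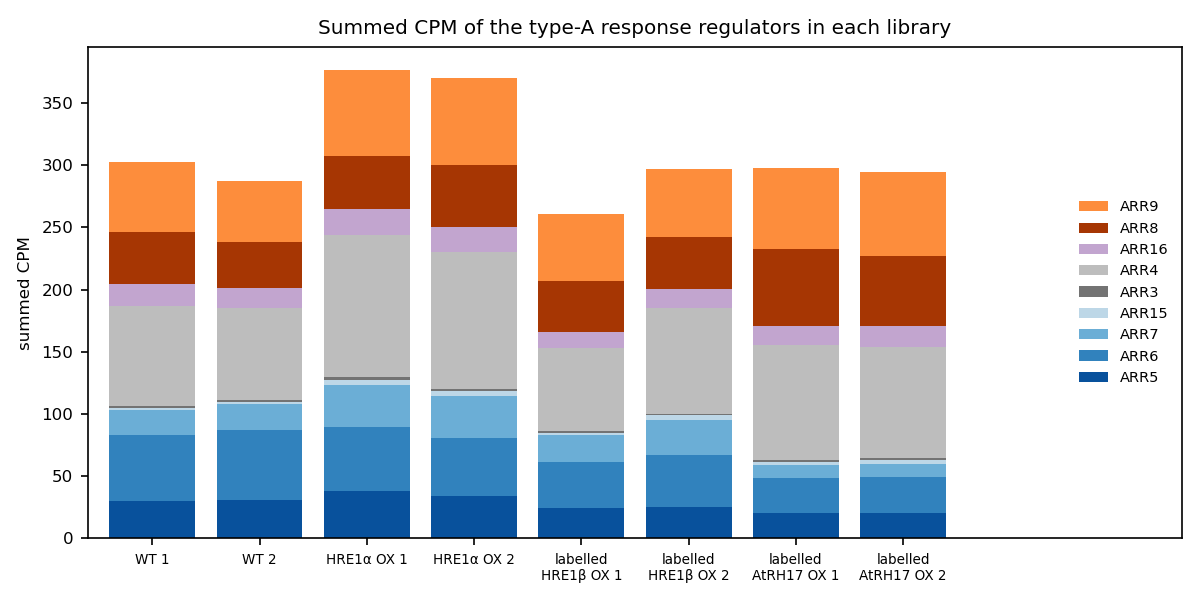
Summed CPM of the tested type-A response regulators in each library, stacked by member from 0. The 2 *HRE1α* OX bars are the tallest, and in the libraries labelled *AtRH17* OX the blue segments of *ARR5*, *ARR6* and *ARR7* hold 20.1% of the family's counts against 36.0% in WT.

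Within pairs, the ratio of CPM between close relatives varied most for *ARR7* and *ARR15*, from 3.91 to 20.6. The size of a ratio is compared between libraries only. *ARR7* was 20.6 and 14.8 times *ARR15* in WT, 7.96 and 7.6 times in *HRE1α* OXs, 11.1 and 7.06 times in the libraries with the label *HRE1β* OX and 5.44 and 3.91 times in the libraries labelled *AtRH17* OX. Both WT libraries were above all libraries of the lines, but *ARR15* rested on 28 and 42 counts in WT and on 28 to 124 counts over all libraries. The difference in this ratio was not tested. The ratio of *ARR6* to *ARR5* stayed between 1.35 and 1.82 over the 8 libraries and that of *ARR9* to *ARR8* between 1.06 and 1.60. The ratio of *ARR4* to *ARR3* lay between 36.9 and 87.6, with *ARR3* resting on 26 to 61 counts. Across libraries, the highest level was 4.45 times the lowest for *ARR15*, 3.21 times for *ARR7* and 1.43 times for *ARR9*, which varied least.

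Around the family, 52 of 54 listed genes of cytokinin synthesis, perception and response were found in the tables and 41 had enough counts to be tested. Of these 41, 2 were higher and 1 lower than in WT in *HRE1α* OXs, 1 was higher and 5 lower in the libraries with the label *HRE1β* OX, and 4 were higher and 6 lower in the libraries labelled *AtRH17* OX. Over all genes tested, the shares higher and lower were 1.57% and 1.8%, 11.2% and 11.6%, and 15.3% and 15.5% in the same order, so that the counts in the last 2 comparisons are near or below what all genes show. None of the 3 receptor genes passed against WT by edgeR, *AHK3* alone being past an unadjusted threshold of 0.05, in the libraries labelled *AtRH17* OX (adjusted p = 0.0626), and their log2 fold changes there lay between −0.34 and 0.10. Of the 5 tested phosphotransfer genes, *AHP1* was lower in the libraries with the label *HRE1β* OX (log2 fold change −0.30, adjusted p = 0.033, edgeR), a call that was lost in 9 settings. Of the 6 tested type-B response regulators, the activators of the type-A genes, *ARR10* rose from 9.74 and 10.6 CPM in WT to 14.2 and 17.5 CPM in the libraries labelled *AtRH17* OX, a log2 fold change of 0.64 by edgeR (adjusted p = 0.00238) that did not pass without AtRH17 OX replicate 2 (adjusted p = 0.0689). *ARR1* was lower in the same libraries (−0.51, adjusted p = 0.000639) and in those labelled *HRE1β* OX (−0.39, adjusted p = 0.0104), both by edgeR. The second of these calls was lost without WT replicate 2 (adjusted p = 0.0844), without HRE1β OX replicate 1 (adjusted p = 0.0698) and without HRE1β OX replicate 2 (adjusted p = 0.0844). These 2 activators thus moved in opposite directions in the libraries labelled *AtRH17* OX.

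Cytokinin response factors (CRF) are AP2/ERF transcription factors, several of which cytokinin induces. Of the 6 tested, 2 were higher and 1 lower in *HRE1α* OXs, 1 was lower in the libraries with the label *HRE1β* OX and 3 were lower in the libraries labelled *AtRH17* OX, where 1.57% and 1.8%, 11.6%, and 15.5% of all genes tested did so. *CRF2* was at 14.6 and 16.7 CPM in WT, at 22.8 and 25.0 CPM in *HRE1α* OXs, at 18.0 and 21.4 CPM in the libraries with the label *HRE1β* OX and at 7.71 and 6.15 CPM in the libraries labelled *AtRH17* OX. *CRF5* was at 11.7 and 14.2 CPM, 22.3 and 24.6 CPM, 11.9 and 18.7 CPM, and 7.61 and 8.10 CPM in the same order. As with *ARR7*, both genes were above WT in *HRE1α* OXs and below it in the libraries labelled *AtRH17* OX. The log2 fold changes were 0.61 (adjusted p = 0.00806, edgeR) and −1.17 (adjusted p = 4.66e-07, edgeR) for *CRF2* and 0.86 (adjusted p = 0.0021, edgeR) and −0.72 (adjusted p = 0.00275, edgeR) for *CRF5*. *CRF6* was lower than in WT in all 3 lines, at 21.9 and 25.5 CPM in WT and 12.6 and 14.1 CPM in the libraries with the label *HRE1β* OX, where the log2 fold change was −0.83 (adjusted p = 2.47e-05, edgeR). In *HRE1α* OXs the log2 fold change of *CRF6* was −0.49 (adjusted p = 0.0337, edgeR), and it did not pass without either *HRE1α* OX library (adjusted p = 0.124 and 0.378) or without WT replicate 2 (adjusted p = 0.166). The rise in *HRE1α* OXs did not pass without HRE1α OX replicate 2 for *CRF2* (adjusted p = 0.184, edgeR) or *CRF5* (adjusted p = 0.0866, edgeR), nor for *CRF2* without HRE1α OX replicate 1 (adjusted p = 0.0584) or WT replicate 1 (adjusted p = 0.0715). The lower level of *CRF5* in the libraries labelled *AtRH17* OX did not pass with limma on quantile-normalized values (adjusted p = 0.0548). In that setting *CRF2* (adjusted p = 0.144), *CRF5* (adjusted p = 0.147) and *CRF6* (adjusted p = 0.214) did not pass in *HRE1α* OXs either.

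Genes of cytokinin synthesis, activation and degradation were counted as well. Of 21 tested, 3 were higher and 2 lower in the libraries labelled *AtRH17* OX, and 1 was higher and 2 were lower in those with the label *HRE1β* OX, shares below those over all genes. *CKX4*, a cytokinin oxidase that degrades the hormone, was at 0.782 and 0.957 CPM in WT and at 2.33 and 3.17 CPM in the libraries labelled *AtRH17* OX, a log2 fold change of 1.65 by edgeR (adjusted p = 0.00196). It was at 2.26 and 2.72 CPM in the libraries with the label *HRE1β* OX, a log2 fold change of 1.51 by edgeR (adjusted p = 0.00568) that did not pass without HRE1β OX replicate 2 (adjusted p = 0.0586, edgeR). *LOG7*, which releases active cytokinin from its nucleotide, was at 11.2 and 8.24 CPM in WT and at 16.4 and 21.2 CPM in the libraries labelled *AtRH17* OX, a log2 fold change of 0.95 by edgeR (adjusted p = 7.27e-05). *LOG5* of the same enzyme family had a log2 fold change of −1.06 by edgeR (adjusted p = 0.0335) there, and *IPT5*, which makes the cytokinin precursor, of 0.74 (adjusted p = 0.0328, edgeR). Both of these calls were lost without WT replicate 2 or without AtRH17 OX replicate 1, with adjusted p between 0.225 and 0.394 (edgeR). The type-C response regulators *ARR22* and *ARR24* had too few counts to be tested.

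**Figure D4:**
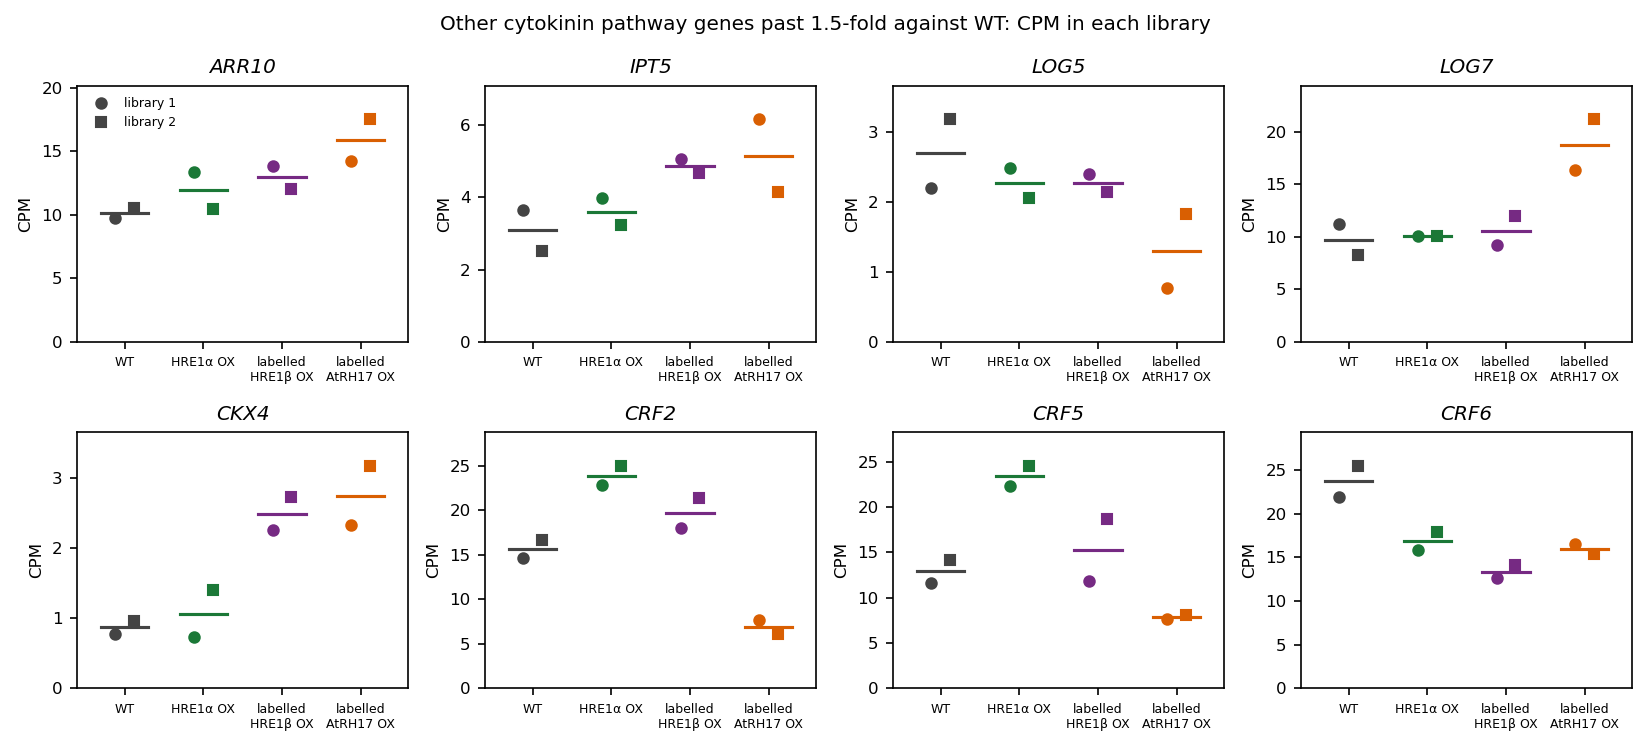
CPM in each library of the 8 other cytokinin pathway genes that passed the test with at least a 1.5-fold change against WT, with libraries as points and group means as bars. *CRF2* and *CRF5* stand above WT in *HRE1α* OXs and below it in the libraries labelled *AtRH17* OX, as *ARR7* does.

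The mean of the tested members' log2 CPM, each centred on its own mean, was taken as the profile of the family over the 8 libraries. Of 19855 genes with a mean of at least 1 CPM, those whose own profile was most like it by Pearson's r were *PTR1* (0.988), *PnsB3* (0.984), *PDIL5-2* (0.979), *DELTA-TIP* (0.964) and *AT1G52380* (0.96). The 8 libraries are 4 pairs of replicates, and these values only describe which genes share the order of the groups.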

How the data were processed

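Total RNA of whole seedlings was sequenced as QuantSeq 3′ libraries. The authors aligned the reads with Bowtie2 and deposited raw counts per gene, 1 library per table, with no normalization. By the study's methods, unique and multiple alignments were counted. The genome is given as TAIR10, and tool versions are not given in the sources used here. The 33028 gene names were matched to TAIR10.1 loci (32577 assigned, 451 not assigned, *AHP2* and *LOG2* among the latter). Counts were filtered with filterByExpr, which left 22602 genes, scaled by TMM factors (0.958 to 1.03) and tested with edgeR 4.0.16 (glmQLFit, robust, quasi-likelihood F test) in R 4.3.3, with all 4 groups in 1 fit and Benjamini-Hochberg adjustment over all genes tested. A gene was called at an adjusted p under 0.05. Each standard error was obtained as the size of the log2 fold change over the root of its F. The test was also tried on counts simulated with means and spreads estimated from these libraries, and the outcome is not given here.

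Named genes are the 10 members, pathway genes called with at least a 1.5-fold change against WT, *HRE1*, *AtRH17* and the 5 genes most like the family. *AHK3*, *AHP1*, *ARR1*, *STM*, *KNAT1* and the genes overlapping members were named after their values were seen. The members and lists were chosen with earlier results of these data known. Alternatives were other factors, filters and fitted groups, DESeq2 1.42.0, limma 3.58.1 on quantile-normalized log2(CPM + 1), which takes the quantile normalization from the study but not its test, leaving out the organelle genes or each library, and a replicate block. Sequences were read from TAIR10.1, and proteins were translated and aligned with Biopython 1.88. The floor of 3 counts covers counting error only.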

Additional observations from a re-analysis of the deposited data

Results flagged for a closer look

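The effects of *HRE1α* OX and of the libraries labelled *AtRH17* OX on *ARR7*, *CRF2* and *CRF5* went in opposite directions against WT. The genes were picked because the lines also differed when compared directly, so these values describe the difference and are no further test of it. In the libraries labelled *AtRH17* OX against *HRE1α* OXs, the log2 fold change was −1.66 for *ARR7*, −1.78 for *CRF2* and −1.58 for *CRF5*, with both libraries of one line below both of the other for each gene. No explanation was tested.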

How the results depend on the processing

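Groups are named here by their labels. No called value changed direction. Of 999 values of the 54 member comparisons under 19 settings, 905 kept their direction and side of the threshold, 50 lost and 29 gained a call, and 15 uncalled values changed sign. With quantile-normalized log2(CPM + 1) and limma, the members called fell to 0 in *HRE1α* OXs against WT, 3 in *AtRH17* OX against *HRE1α* OX and 1 in *AtRH17* OX against *HRE1β* OX, and the pathway genes called to 0, 2, 0 and 1 in *HRE1α* OX and *HRE1β* OX against WT, *HRE1β* OX against *HRE1α* OX, and *AtRH17* OX against *HRE1β* OX. All genes called then fell from 760 to 73 in *HRE1α* OX against WT, from 3781 to 1864 in *HRE1β* OX against *HRE1α* OX and from 3135 to 768 in *AtRH17* OX against *HRE1β* OX. With only the 2 groups compared, 13 pathway genes in place of 8 passed in *AtRH17* OX against *HRE1α* OX. Leaving out 1 library at a time, the members called ranged from 3 to 4, 1 to 3 and 5 to 7 for *HRE1α* OX, *HRE1β* OX and *AtRH17* OX against WT, from 2 to 6 for *HRE1β* OX against *HRE1α* OX, and from 3 to 7 and 3 to 5 for *AtRH17* OX against *HRE1α* OX and *HRE1β* OX. Pathway genes called ranged from 0 to 3, 1 to 8, 7 to 14, 1 to 3, 4 to 13 and 3 to 7 in the same order. Scaling by total counts gave 40.4% and 30.8% of called genes higher in *AtRH17* OX against *HRE1α* OX and *HRE1β* OX, in place of 51.9% and 53.5%, and 39.7% in place of 49.5% in *AtRH17* OX against WT. Same-numbered libraries did not deviate together (r of −0.01 to 0.05), so the labels' numbers were not taken as pairs. With the replicate block, 4, 2, 6, 6, 6 and 4 members and 3, 6, 10, 3, 8 and 5 pathway genes were called in that order of comparisons, and 865 genes in all for *HRE1α* OX against WT. *ARR3*, *ARR15* and *ARR17* are limited by depth.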
